A study of Mus musculus with 18 samples.

Results

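The mevalonate and sterol synthesis genes followed here are *Hmgcs1*, *Idi1*, *Fdps*, *Fdft1*, *Sqle*, *Lss* and *Cyp51*, which encode enzymes, and *Insig1*, which encodes a sterol-dependent regulator of the pathway. They were found by Entrez identifier and make up 8 of 24100 gene rows in each of 2 count tables. All 8 passed the filter on low counts in both tables. The set had been proposed as cholesterol synthesis and uptake genes, but none of the 8 encodes an uptake protein, so uptake genes were followed as a separate list.

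The libraries came from C3H/10T1/2 (CCL-226) cells, a mouse line of mesenchymal progenitor cells (MPCs), grown without a differentiation stimulus. The lines sequenced were WT, which had received a Cas9 vector with no guide, and the *Atrx* KO clones sg5 (clone G7) and sg6 (clone B10), each made with its own guide. ATRX is a chromatin remodeler. For each of the 3 lines, 3 libraries were made after polyA selection and 3 after removal of rRNA, numbered 1 to 3 in the labels. Each KO line is 1 clone, so a difference from WT cannot be told apart from a difference between clones. The labels do not say whether libraries of a line came from separate cultures, nor what libraries with the same number share, and p-values therefore measure the spread among these libraries only. In bulk RNA, fewer cells of a type and less RNA per cell cannot be told apart.

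Cholesterol is made from acetyl-CoA through mevalonate, isoprenyl diphosphates, squalene and lanosterol. When sterols in the endoplasmic reticulum are low, SCAP escorts the transcription factor SREBP2 to the Golgi, where it is cleaved and released, and it then acts on the promoters of most enzymes of the pathway. When sterols are high, INSIG proteins hold SCAP back, and *Insig1* is itself a target of SREBP, so that its transcript is a common readout of the pathway along with those of the enzymes.

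Coordinates are those of RefSeq on GRCm38.p6. *Hmgcs1* (Entrez 208715, chr13:119690351-119708260) and *Idi1* (319554, chr13:8885606-8892396) are on chromosome 13. *Cyp51* (13121, chr5:4080674-4104697) and *Insig1* (231070, chr5:28071412-28078662) are on chromosome 5. The others are *Fdps* (110196, chr3:89093588-89101967), *Fdft1* (14137, chr14:63145150-63181687), *Sqle* (20775, chr15:59315092-59331193) and *Lss* (16987, chr10:76531565-76557139). All are protein-coding. Of the 31-base words in their transcripts, 27.9% for *Fdps*, 18.8% for *Idi1* and 14.3% for *Fdft1* also occur in transcripts of other genes in the GENCODE annotation, such as *Gm43738*, *Gm13502* and *Gm6781*, so the counts of these genes are uncertain. The share was at most 3.46% for the other 5. Exons of *Cyp51*, *Fdft1*, *Hmgcs1*, *Idi1* and *Lss* overlap a gene on the opposite strand, and because no strand setting is given in the sources used here, reads of such pairs cannot be told apart.

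Promoter windows from RefSeq, 250 bases before to 50 after the start of transcription, matched 5 of the 8 genes, *Hmgcs1*, *Idi1*, *Lss*, *Cyp51* and *Insig1*. Windows are shown for the genes that the comparisons below turn on, on the strand of the gene, because the 8 transcripts varied together across libraries. Capitals mark, on either strand, the letters TCACNCCAC of a sterol regulatory element, CCAAT of an NF-Y box and GGGCGG of a GC box. The 3 kinds of match do not overlap in these windows.
Hmgcs1 promoter, chr13:119690101-119690400, plus strand: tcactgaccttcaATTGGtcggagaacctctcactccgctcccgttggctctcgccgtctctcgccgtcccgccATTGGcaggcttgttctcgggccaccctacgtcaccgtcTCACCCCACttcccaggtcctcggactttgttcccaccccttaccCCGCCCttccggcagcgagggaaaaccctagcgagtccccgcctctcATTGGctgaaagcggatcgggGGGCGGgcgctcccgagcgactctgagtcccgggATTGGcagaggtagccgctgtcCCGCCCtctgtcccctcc
Idi1 promoter, chr13:8885356-8885655, plus strand: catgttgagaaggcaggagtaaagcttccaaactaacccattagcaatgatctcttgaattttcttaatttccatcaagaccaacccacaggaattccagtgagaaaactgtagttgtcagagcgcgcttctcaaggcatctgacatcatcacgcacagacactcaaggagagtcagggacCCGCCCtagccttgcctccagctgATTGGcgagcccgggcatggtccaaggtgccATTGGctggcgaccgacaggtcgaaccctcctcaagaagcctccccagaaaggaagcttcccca
Insig1 promoter, chr5:28071162-28071461, plus strand: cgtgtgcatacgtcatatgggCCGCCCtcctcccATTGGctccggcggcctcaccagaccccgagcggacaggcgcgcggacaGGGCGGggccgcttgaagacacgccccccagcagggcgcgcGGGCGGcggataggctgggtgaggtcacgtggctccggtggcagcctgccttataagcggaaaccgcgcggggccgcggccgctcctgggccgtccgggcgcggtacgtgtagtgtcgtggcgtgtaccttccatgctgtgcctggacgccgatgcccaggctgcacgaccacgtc
The *Hmgcs1* window held 1 match to the sterol element letters, TCACCCCAC, which begins 137 bases before the start. The windows of *Idi1*, *Lss*, *Cyp51* and *Insig1* held no match to TCACNCCAC. Of 32851 windows in the RefSeq table, 1.24% held TCACNCCAC and 0.551% held TCACCCCAC. CCAAT and GGGCGG were found in each of the 5 windows, against 37.4% and 35.7% of all windows, with 4 CCAAT matches in *Hmgcs1*, 2 in *Idi1* and 1 in *Insig1*. These are matches of letters only, and binding was not measured in the data used here.

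Library totals ran from 27544833 to 235346363 counts for polyA and from 20135336 to 33187136 for rRNA-depleted libraries, and the polyA libraries of sg5 were the deepest. *Atrx* stood at 276, 297 and 328 CPM in WT polyA libraries, against 114 to 138 for sg5 and 122 to 141 for sg6. Its log2 fold changes from WT were -1.24 ± 0.10 SE (sg5) and -1.20 ± 0.10 (sg6), with adjusted p of 5.04e-05 and 5.15e-05 by edgeR's quasi-likelihood test. In rRNA-depleted libraries the values were -1.39 ± 0.21 (adjusted p = 0.00138) and -1.31 ± 0.20 (adjusted p = 0.00227). Of 10 mesenchymal progenitor markers, 10 passed the low-count filter in polyA and 9 in rRNA-depleted libraries, although *Nt5e* had at most 49 counts in any library. Of 9 markers of blood, epithelial, endothelial and liver cells, 5 passed it in polyA and 2 in rRNA-depleted libraries, and *Alb* was at 0 in all 9 rRNA-depleted libraries. Each transcript level below is a CPM, the counts scaled to a common library total after TMM normalization. CPM was computed within a table, and levels were not compared between genes, whose lengths differ, or between the 2 kinds of library.

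*Hmgcs1* encodes the HMG-CoA synthase of the cytosol, an early step of the mevalonate pathway. In polyA libraries numbered 1, 2 and 3 it stood at 565, 401 and 299 CPM in WT, at 656, 469 and 405 in sg5, and at 583, 496 and 448 in sg6. In rRNA-depleted libraries it stood at 642, 458 and 463 in WT, at 985, 581 and 586 in sg5, and at 834, 554 and 629 in sg6. The library numbered 1 was the highest of its line in all 6 sets, and the ranges of WT and of each clone overlapped in both kinds of library.

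*Idi1* encodes an isomerase that interconverts the isoprenyl building blocks IPP and DMAPP. Its polyA levels were 284, 156 and 93.5 CPM in WT, 286, 202 and 178 in sg5, and 269.5, 210.1 and 193 in sg6. The WT library numbered 1 lay with the clones' libraries of that number, while the WT library numbered 3 lay below every other library. Its rRNA-depleted levels were 249, 184 and 147 CPM in WT, 323, 277 and 264 in sg5, and 316, 257 and 268 in sg6. Here all 6 KO libraries exceeded all 3 WT libraries, which held for no other of the 8 genes in either kind of library. Every sg5 library lay above every WT library for 10.5% of all features and 21.4% of gene rows, and every sg6 library for 8.74% and 17.1%. In polyA libraries this held for 0 of the 8 genes in either clone, beside 21.2% of features in sg5 and 22.4% in sg6. The share with all 6 KO libraries above all 3 WT libraries is not given here. The order of *Idi1* therefore cannot be set against a background.

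*Fdps* and *Fdft1* encode farnesyl diphosphate synthase and squalene synthase, the enzymes on either side of the branch towards sterols. *Fdps* in polyA libraries stood at 275, 159.8 and 100.3 CPM in WT, 219.8, 175 and 166 in sg5, and 173, 154 and 141 in sg6. *Fdft1* there stood at 175, 121 and 107 CPM in WT, 200.4, 151 and 148 in sg5, and 155, 148 and 146 in sg6. For both genes the highest and lowest WT libraries bracketed all 3 sg6 libraries. In rRNA-depleted libraries *Fdps* stood at 406, 307 and 277 CPM in WT, 540.0, 366 and 400.4 in sg5, and 397, 289.6 and 365 in sg6. *Fdft1* there stood at 186, 130.2 and 129.9 CPM in WT, 271, 176 and 167 in sg5, and 204, 143 and 167 in sg6. Both were again highest in the libraries numbered 1, and the lines overlapped.

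*Sqle* encodes squalene epoxidase, the first oxygen-requiring step, *Lss* the cyclase that makes lanosterol, and *Cyp51* the demethylase that acts on lanosterol. In polyA libraries *Sqle* stood at 334, 206 and 155 CPM in WT, 286, 223 and 199 in sg5, and 229, 216 and 197 in sg6. *Lss* there stood at 217, 114 and 83.7 CPM in WT, 186, 119 and 108 in sg5, and 122, 97.5 and 85.3 in sg6. *Cyp51* there stood at 301, 187 and 139.7 CPM in WT, 325, 252 and 213 in sg5, and 212, 195 and 160.2 in sg6. All 3 sg5 libraries exceeded all 3 sg6 libraries for *Cyp51*, narrowly, as they did for 11.7% of features, and the spread was widest in WT for all 3 genes. In rRNA-depleted libraries *Sqle* stood at 289, 238 and 213 CPM in WT, 351, 242 and 236 in sg5, and 313, 225 and 260.4 in sg6. *Cyp51* there stood at 468, 377 and 348 CPM in WT, 578, 451 and 443 in sg5, and 416, 378 and 404 in sg6. *Lss* there stood at 29.5, 28.8 and 24.3 CPM in WT, 34.3, 47.1 and 27.8 in sg5, and 27.2, 18.8 and 24.9 in sg6. *Lss* was the one gene of the 8 whose rRNA-depleted library numbered 1 was not the highest in each line, since sg5 was highest in the library numbered 2.

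*Insig1* encodes the endoplasmic reticulum protein that retains SCAP when sterols are high. Its polyA levels were 227, 124 and 116 CPM in WT, 248, 157 and 134 in sg5, and 156, 121 and 107 in sg6. Its rRNA-depleted levels were 400.5, 226 and 234 CPM in WT, 547, 229 and 228 in sg5, and 367, 178 and 234 in sg6. The library numbered 1 was the highest in each of these 6 sets, and in rRNA-depleted sg5 it stood far above the others.

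**Figure D1:**
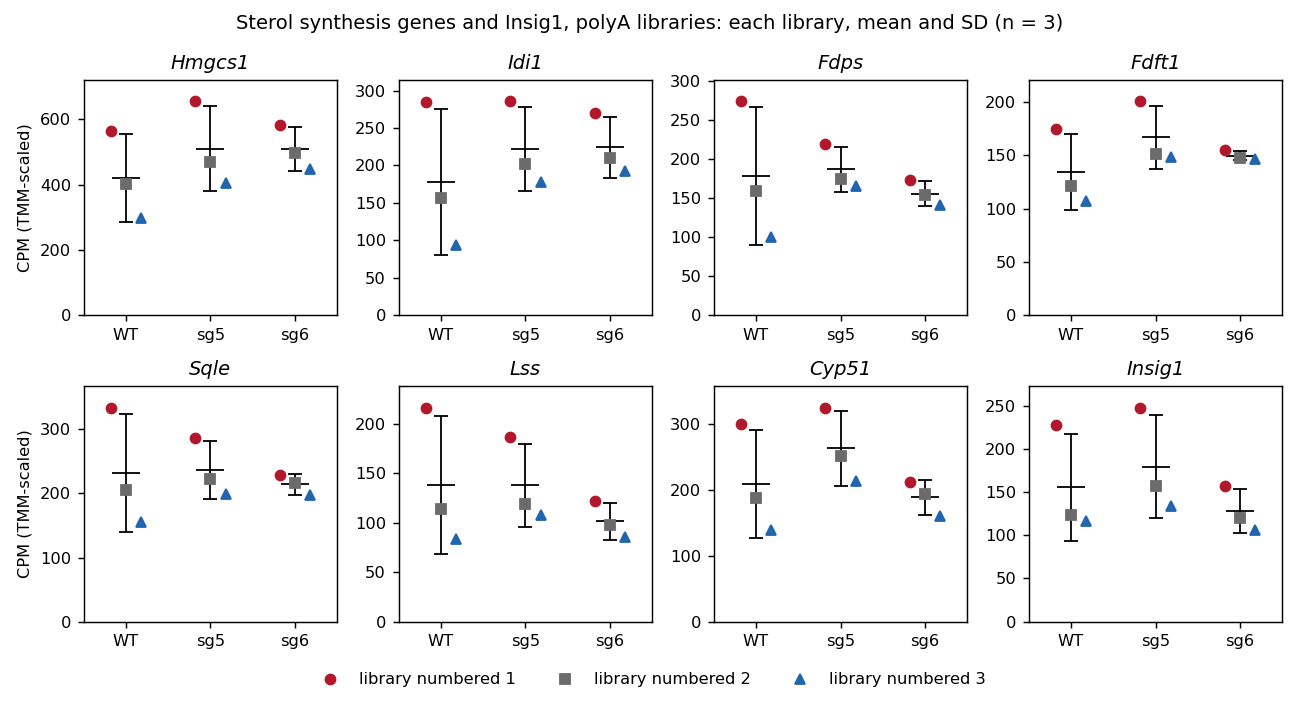
Transcript level (CPM, TMM-scaled, linear axis from 0) of the 8 genes in each polyA library of WT, sg5 and sg6, with the symbol giving the library number and the bars the mean and SD (n = 3). The library numbered 1 is the highest and the one numbered 3 the lowest of its line for all 8 genes, and *Idi1* has the largest ratio of number 1 to number 3 in WT, from 284 to 93.5 CPM.

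**Figure D2:**
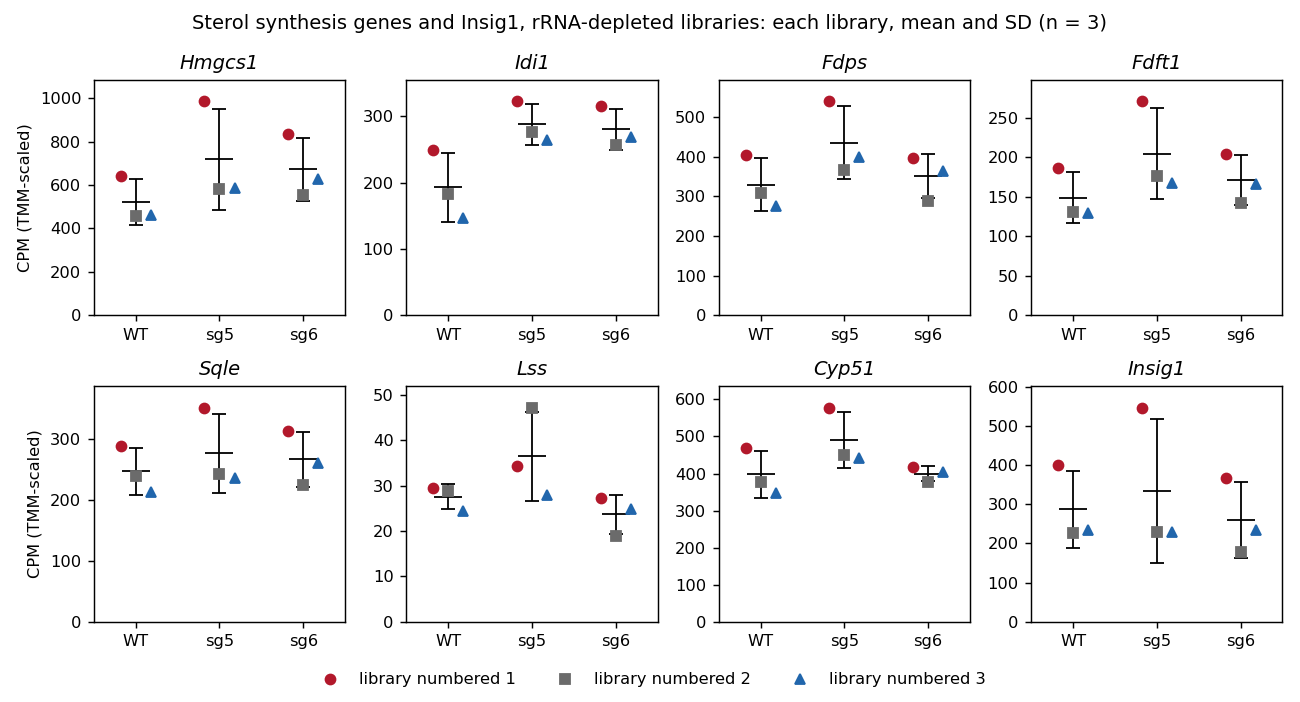
The same plot for the rRNA-depleted libraries (CPM, TMM-scaled, linear axis from 0, mean and SD, n = 3). The library numbered 1 is the highest of each line for 7 of the 8 genes, with *Lss* as the exception, and only *Idi1* has all 6 KO libraries above all 3 WT libraries. Taken alone, sg5 lay above WT in every library for 21.4% of gene rows, and sg6 for 17.1%.

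The 8 genes were ordered by library number in much the same way in each line. The number-1 library was the highest of its line in all 3 lines for 8 of 8 genes in polyA libraries, where 11.6% of all 15480 features tested did so, and for 7 of 8 in rRNA-depleted libraries, where 8.72% of 56086 features and 21.3% of 13303 gene rows did so. The ratio of the number-1 to the number-3 polyA library had a median over the genes of 2.15 in WT (1.62 to 3.04), 1.57 in sg5 (1.32 to 1.84) and 1.31 in sg6 (1.06 to 1.47). In rRNA-depleted libraries the medians were 1.41, 1.42 and 1.19. The number-3 polyA library was the lowest of its line in all 3 lines for 8 of 8 genes, against 11.6% of features. Over the 9 polyA libraries, Pearson's r of log2 CPM between pairs of the 8 genes ran from 0.71 to 0.98 with a median of 0.87 over 28 pairs, and over the 9 rRNA-depleted libraries from 0.26 to 0.97 with a median of 0.80. The points of each such r share their libraries and scaling factors.

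Libraries of the same number were compared across the 3 lines with line as a term in an edgeR quasi-likelihood fit over all features, with Benjamini-Hochberg adjustment. In polyA libraries, 6 of the 8 genes were higher in the libraries numbered 1 than in those numbered 3 (adjusted p below 0.05), where 4.74% of all features were called higher and 4.65% lower. *Idi1* differed most, with a log2 fold change of 0.92 ± 0.18 SE (adjusted p = 0.0293). *Lss* followed at 0.90 ± 0.14 (adjusted p = 0.0169) and *Insig1* at 0.80 ± 0.10 (adjusted p = 0.00888). *Cyp51* differed by 0.71 ± 0.12 (adjusted p = 0.0203), *Hmgcs1* by 0.67 ± 0.10 (adjusted p = 0.0154) and *Sqle* by 0.62 ± 0.15 (adjusted p = 0.0407). The differences of *Fdps*, 0.71 ± 0.20 (adjusted p = 0.0612), and *Fdft1*, 0.41 ± 0.11 (adjusted p = 0.0566), had the same sign and did not pass. The median over the 8 genes was 0.71, against -0.01 over all features. Without the sg6 library numbered 1 only *Insig1* passed, and without the sg6 library numbered 3 none did, while in that second fit all 8 log2 fold changes were larger than with all libraries in. Over the 9 fits that each left out 1 library, *Insig1* was called in 8, *Hmgcs1* and *Lss* in 7, *Cyp51* in 6, *Idi1* in 4 and *Sqle* in 1.

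In rRNA-depleted libraries the same contrast called 1 of the 8 genes, *Insig1*, with a log2 fold change of 0.89 ± 0.13 SE (adjusted p = 0.0419), where 0.109% of all features and 0.451% of gene rows were called higher. All 8 differences were above 0, from 0.23 for *Lss* to 0.89, with a median of 0.43. The median was -0.06 over all features and 0.10 over gene rows. Between the libraries numbered 1 and 2, 3 of the 8 genes were called higher in number 1 in rRNA-depleted libraries, where 0.749% of all features and 2.68% of gene rows were called so. *Insig1* differed there by 1.04 ± 0.13 (adjusted p = 0.0197), *Hmgcs1* by 0.62 ± 0.11 (adjusted p = 0.0308) and *Fdft1* by 0.55 ± 0.11 (adjusted p = 0.0464). In polyA libraries that contrast called *Insig1* alone (0.64 ± 0.10, adjusted p = 0.0445), where 0.401% of features were called higher, and the median over the 8 genes was 0.43. The polyA call of *Insig1* was lost without any 1 of 7 libraries, WT numbered 2 or 3, sg5 numbered 2 or 3, and any of sg6. In rRNA-depleted libraries the count of 3 fell to 0 without WT 2, sg5 1, sg6 1 or sg6 2 and to 1 without sg5 2 or sg6 3, and the count of 1 against number 3 was 2 without WT 1 and 0 without WT 2, sg5 1, sg5 3, sg6 1 or sg6 3. With all libraries in, *Insig1* was the one gene of the 8 called higher in number 1 against both other numbers in both kinds of library. Between numbers 2 and 3 none of the 8 was called in either kind of library (edgeR), as was none of all features (0%), and 2 of the 8 in polyA and 0 in rRNA-depleted libraries had an unadjusted p below 0.05. DESeq2 also called 0 of the 8 there.

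**Figure D3:**
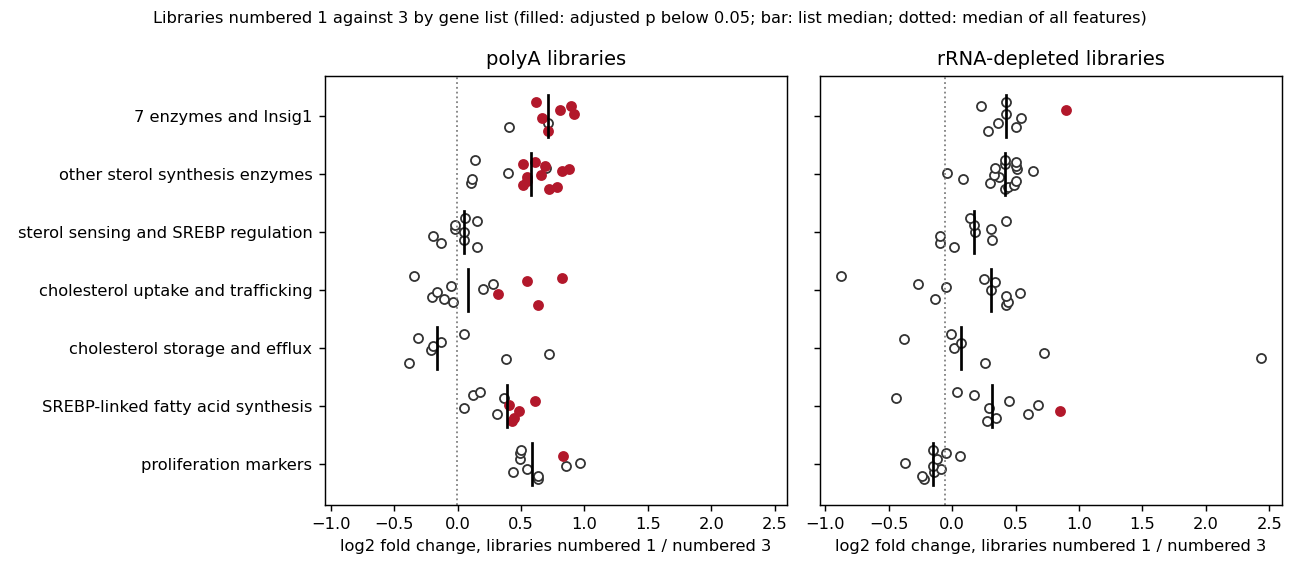
Log2 fold change of libraries numbered 1 over those numbered 3, with line as a term, for each gene of 7 lists in polyA and rRNA-depleted libraries. Filled points passed an adjusted p of 0.05, vertical bars are list medians and the dotted line is the median of all features. The 8 genes have a median of 0.71 in polyA and 0.43 in rRNA-depleted libraries, and the other sterol enzymes 0.58 and 0.42.

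Against WT, none of the 8 genes was called in either clone or either kind of library in the fit on line alone. A fit with the library number as a block, given below, did call some. Without that block, edgeR called 0 of 8 in polyA libraries of sg5, where 27.0% of all features were called. It called 0 of 8 in those of sg6, where 30.7% were called. No member had an unadjusted p below 0.05 in either polyA contrast, and DESeq2 also called 0 of 8. The log2 fold changes of sg5 versus WT ran from -0.00 for *Lss* to 0.33 for *Cyp51*, with a median of 0.24. Those of sg6 versus WT ran from -0.44 for *Lss* to 0.33 for *Idi1*, with a median of -0.13. Over all 8 genes the 95% intervals lay between -0.76 and 1.11 in sg5 and between -1.20 and 1.13 in sg6.

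In rRNA-depleted libraries edgeR again called 0 of 8 in sg5, where 3.88% of all features and 10.7% of gene rows were called, and 0 of 8 in sg6, where 2.89% and 7.58% were called. DESeq2 also called 0 of 8 in both. All 8 log2 fold changes of sg5 versus WT were above 0, from 0.16 for *Sqle* to 0.58 for *Idi1*, with a median of 0.40 against 0.08 over gene rows. In sg6 they ran from -0.22 for *Lss* to 0.54 for *Idi1*, with a median of 0.10 against 0.04. *Idi1* had the smallest adjusted p in both clones, with 0.58 ± 0.18 SE (95% interval 0.18 to 0.97, adjusted p = 0.108) in sg5 and 0.54 ± 0.18 (0.15 to 0.93, adjusted p = 0.181) in sg6. Its means were 288 ± 30.8 CPM for sg5, 281 ± 31.3 for sg6 and 193 ± 51.8 for WT (SD, n = 3 each). *Fdft1* in sg5 was the only other value with an unadjusted p below 0.05 (0.46 ± 0.21, adjusted p = 0.290). A fit with the library number as a block was an alternative, since the numbers did not meet the criterion for pairing clones with WT. Same-numbered clone and WT libraries correlated in their deviations as low as 0.026 in polyA and 0.055 in rRNA-depleted libraries. Yet 9 of 9 polyA and 8 of 9 rRNA-depleted libraries correlated best with their own number. The fit on line alone leaves differences between numbers in its spread. The blocked fit called 1 of 8 in sg5 (*Cyp51*) and 1 in sg6 (*Hmgcs1*) in polyA libraries (37.3% and 40.1% of features). In rRNA-depleted libraries it called 3 (*Hmgcs1*, *Idi1*, *Fdft1*) and 1 (*Idi1*), beside 19.3% and 13.0% of gene rows.

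**Figure D4:**
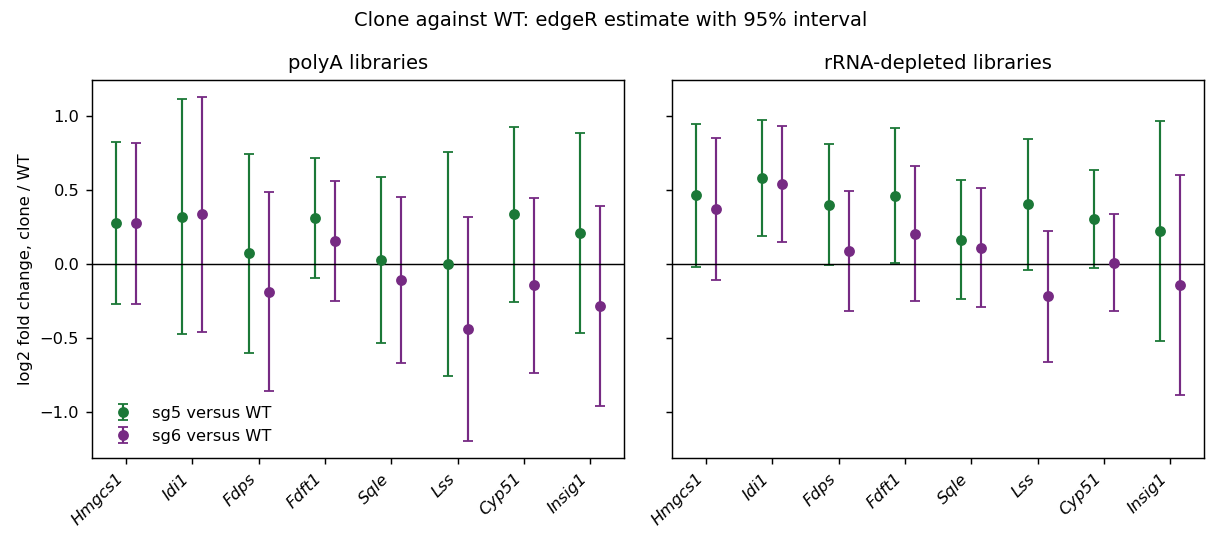
Log2 fold change of each clone over WT for the 8 genes in polyA (left) and rRNA-depleted (right) libraries, with 95% intervals from the edgeR fit (n = 3 libraries per line). All polyA intervals include 0, and *Idi1* in rRNA-depleted libraries has intervals above 0 in both clones at adjusted p of 0.108 and 0.181.

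The clone difference varied with the library number, which was not tested. In polyA libraries numbered 1, the sg6 level was below the WT level for 7 of 8 genes, with a median difference in log2 CPM of -0.52, from -0.83 for *Lss* to 0.04 for *Hmgcs1*. In those numbered 3 it was above for 7 of 8, with a median of 0.40, from -0.13 for *Insig1* to 1.04 for *Idi1*. For sg5 the median was 0.06 in number 1, 0.27 in number 2 and 0.45 in number 3, where *Idi1* reached 0.92. The medians over all features lay between -0.01 and 0.01 in these 6 pairs. In rRNA-depleted libraries the sg5 medians were 0.39, 0.30 and 0.34 in numbers 1, 2 and 3, and the sg6 medians 0.04, -0.04 and 0.32, with all-feature medians from -0.09 to 0.01. *Idi1* was above WT in all 6 rRNA-depleted pairs, by 0.34 to 0.87, *Hmgcs1* by 0.27 to 0.62 and *Fdft1* by 0.13 to 0.54. *Hmgcs1* was also above WT in all 6 polyA pairs, by 0.04 to 0.59. The share of all features above WT in all 6 pairs is not given here. Each of these is a difference between single libraries with no replicate.

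Leaving out the WT library numbered 1 was the one single omission that brought calls in the clone comparisons. The number-1 library was the highest of each line for all 8 genes in polyA and 7 in rRNA-depleted libraries. This omission took it from WT and left it in the clones. The part of that imbalance in the values below was not tested. Without the WT library numbered 1, all 8 genes had polyA log2 fold changes above 0 in both clones, with medians of 0.55 in sg5 and 0.26 in sg6. In sg5, *Fdft1* (0.55, adjusted p = 0.0187), *Cyp51* (0.69, adjusted p = 0.0361) and *Idi1* (0.83, adjusted p = 0.0495) were then called, and in sg6 *Idi1* (0.85, adjusted p = 0.0438). In rRNA-depleted libraries *Idi1* was called without it for both clones, at 0.85 in sg5 (adjusted p = 0.0253) and 0.81 in sg6 (adjusted p = 0.0410). The medians over the 8 genes were 0.61 and 0.30. The shares of all features called in these fits are not given here. With all libraries in, they were 27.0% in sg5 and 30.7% in sg6 in polyA libraries, and 10.7% and 7.58% of rRNA-depleted gene rows.

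**Figure D5:**
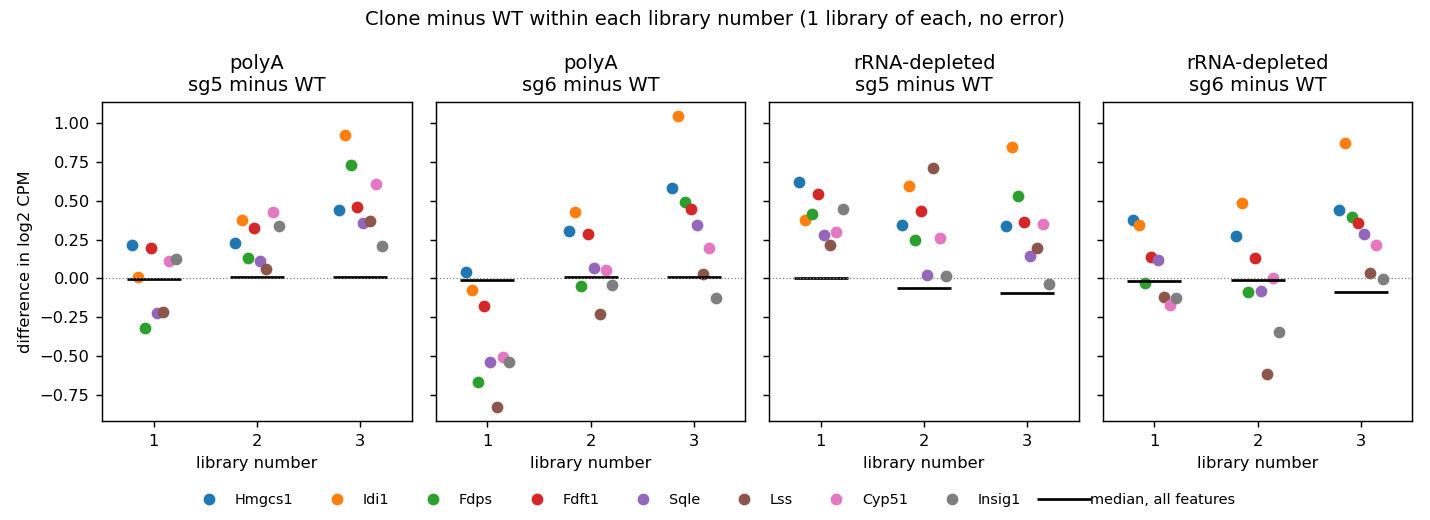
Difference in log2 CPM between a clone and WT in libraries of the same number, for the 8 genes (points) and the median of all features (black bars), in polyA and rRNA-depleted libraries. In polyA the sg6 points lie mostly below 0 in number 1 (median -0.52) and mostly above 0 in number 3 (median 0.40), while rRNA-depleted sg5 has medians of 0.39, 0.30 and 0.34.

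The clones were also compared with each other. Of sg5 versus sg6, 0 of 8 were called by edgeR in polyA libraries (4.79% of features called, 0 members at an unadjusted p below 0.05) and 0 of 8 in rRNA-depleted libraries (0.490% of features and 1.57% of gene rows called, 1 member at an unadjusted p below 0.05). DESeq2 called none in either. The 1 gene was *Lss*, at 0.62 ± 0.21 SE in rRNA-depleted libraries (adjusted p = 0.397), whose 3 sg5 libraries exceeded its 3 sg6 libraries, as did those of *Cyp51* and of 6.46% of all features. The share of gene rows with that order is not given here. In polyA libraries same-numbered sg5 and sg6 libraries deviated together from their line means, with correlations across features from 0.28 to 0.37. With the number as a block, *Insig1* was called higher in sg5 than in sg6 in polyA libraries (0.45 ± 0.10, adjusted p = 0.0266), where 9.05% of features were called, against 0.49 ± 0.30 (adjusted p = 0.487) without it. *Cyp51* was at 0.48 ± 0.26 (adjusted p = 0.423) without the block.

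Several of the genes lie on chromosomes whose genes were shifted together in a clone. On chromosome 13, which carries *Hmgcs1* and *Idi1*, the median log2 fold change of sg6 versus WT over 593 polyA genes was 0.24, with 222 called higher and 41 lower, and it was 0.19 over 527 genes in rRNA-depleted libraries. In sg5 these medians were -0.06 and -0.07. After centring on the chromosome median, the sg6 value of *Hmgcs1* was 0.03 in polyA and 0.18 in rRNA-depleted libraries, and that of *Idi1* 0.10 and 0.35. On chromosome 5, which carries *Cyp51* and *Insig1*, the sg6 medians were -0.22 and -0.18, and on chromosome 14, which carries *Fdft1*, the polyA medians were 0.23 in sg5 and 0.22 in sg6. The part of these shifts in the members' values was not tested.

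The effect of each clone was then compared between the kinds of library in a joint fit of the 18 libraries over 14600 genes present in both tables. Of the 8 genes, 0 differed between polyA and rRNA-depleted libraries in the sg5 effect, where 0.438% of genes did, and 0 in the sg6 effect, where 0.158% did. By unadjusted p below 0.05 the count was also 0 in both, and DESeq2 called 0 in both. The differences ran from -0.37 to 0.05 in sg5 and from -0.29 to -0.06 in sg6, with standard errors from 0.28 to 0.51. These intervals reached from -1.24 to 1.08 and from -1.24 to 0.94.

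Of 16 other sterol synthesis enzymes, 11 were called higher in polyA libraries numbered 1 than in those numbered 3 and none lower, with a median of 0.58. They included *Nsdhl*, a later sterol dehydrogenase (0.69 ± 0.13 SE, adjusted p = 0.0248, edgeR). In rRNA-depleted libraries 0 of 16 were called, and 15 of 16 had values above 0 with a median of 0.42. Against WT, 0 of 16 were called in sg5 and 1 in sg6 in polyA libraries, and 1 in each in rRNA-depleted libraries. For this and the lists that follow, the shares called in either direction against WT were 27.0% of all features in sg5 and 30.7% in sg6 in polyA libraries, and 10.7% and 7.58% of gene rows in rRNA-depleted libraries. Between numbers 1 and 3, the shares called higher were 4.74% of polyA features and 0.451% of rRNA-depleted gene rows. *Ggps1*, which makes the geranylgeranyl diphosphate of a side branch, was the gene called in sg6 in both kinds (0.41 and 0.58), and *Hsd17b7* the one in sg5 (0.75), both named after their values were seen. *Ggps1* lies on chromosome 13, whose genes had sg6 medians of 0.24 in polyA and 0.19 in rRNA-depleted libraries. The part of that shift in its values was not tested.

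Of 9 genes for sterol sensing and SREBP regulation, 0 were called between numbers 1 and 3 in polyA or rRNA-depleted libraries, with medians of 0.05 and 0.17. *Srebf2*, which encodes SREBP2, stood at 375, 285 and 319 CPM in WT polyA libraries numbered 1, 2 and 3, and its difference between numbers 1 and 3 was 0.06 ± 0.11 SE (adjusted p = 0.743). *Srebf1*, which encodes SREBP1, differed by 0.15 ± 0.09 (adjusted p = 0.306) and *Scap*, the escort protein, by -0.02 ± 0.07 (adjusted p = 0.847). Against WT, 3 of the 9 were called in sg5 polyA libraries (27.0% of all features), *Scap* lower (-0.28 ± 0.09, adjusted p = 0.0438) and 2 higher, and 2 higher in sg6 (30.7%). In rRNA-depleted libraries 1 was called in sg5 and none in sg6, and *Srebf2*, *Srebf1* and *Scap* were not among those called.

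Of 12 uptake and trafficking genes, 4 were called higher in polyA libraries numbered 1 than in those numbered 3, beside 4.74% of all features. *Npc1*, a cholesterol transporter of the lysosomal membrane, was among them at 0.32 ± 0.07 SE (adjusted p = 0.0349, edgeR). In rRNA-depleted libraries 0 of 11 tested were called, and *Npc1* was at 0.54 ± 0.15 (adjusted p = 0.200). Of the 12, 3 were called higher in sg5, and 4 higher and 1 lower in sg6, in polyA libraries, and of 11 in rRNA-depleted libraries 2 were called higher in sg5 and 1 in sg6, beside 27.0% and 30.7% of all polyA features and 10.7% and 7.58% of rRNA-depleted gene rows. *Npc2*, which moves cholesterol out of lysosomes, was higher than WT in both clones in both kinds of library, by 0.73 ± 0.10 and 0.77 ± 0.10 in polyA (adjusted p = 0.000935 and 0.000612) and 0.89 ± 0.17 and 0.70 ± 0.17 in rRNA-depleted libraries (adjusted p = 0.00734 and 0.0361).

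Of 10 storage and efflux genes, 8 were tested in polyA and 7 in rRNA-depleted libraries, and 0 were called between numbers 1 and 3 in either. Against WT, 2 were called higher and 1 lower in sg5, and 3 higher and 1 lower in sg6, in polyA libraries, and 2 higher and 1 lower in sg5 and 2 higher in sg6 in rRNA-depleted libraries, where 10.7% and 7.58% of gene rows were called. *Ch25h*, whose enzyme makes 25-hydroxycholesterol, an oxysterol that INSIG proteins bind, had 0 counts in all 6 WT libraries. It had 81 to 180 counts in sg5 and 48 to 65 in sg6 polyA libraries, and 10 to 20 and 14 to 24 in rRNA-depleted ones. Against 3 counts in the smallest WT library, the mean sg5 level was at least 6.56-fold higher in polyA and at least 4.54-fold higher in rRNA-depleted libraries, and the mean sg6 level at least 8.38-fold and 5.88-fold higher. It passed the test in all 4 contrasts (adjusted p from 8.3e-05 to 0.00116, edgeR). With 0 counts in WT, *Ch25h* passed the low-count filter only through the clones, where it is high. It was also named because of these 4 calls, so they are no independent support.

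Of 10 fatty acid synthesis genes linked to SREBP, 5 were called higher in polyA libraries numbered 1 than in those numbered 3. Their median was 0.39 over the 10, and 4.74% of all features were called higher. In rRNA-depleted libraries 1 of the 10 was called higher, beside 0.451% of gene rows. *Elovl6*, an elongase of long-chain fatty acids, was called in both (0.49 ± 0.12 SE, adjusted p = 0.0458, and 0.85 ± 0.13, adjusted p = 0.0451). In WT polyA libraries it stood at 149, 104 and 98.1 CPM, and it was highest in the library numbered 1 of each line in both kinds. Against WT, 0 of the 10 were called in sg5 and 2 higher and 1 lower in sg6 in polyA libraries, and 1 higher in sg5 and none in sg6 in rRNA-depleted libraries.

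Of 10 proliferation markers, all had polyA values above 0 between numbers 1 and 3, with a median of 0.59 and 1 called higher, and their summed level was 1334 to 2237 CPM in number 1, 1481 to 2127 in number 2 and 903 to 1599 in number 3. In rRNA-depleted libraries 1 of 10 was above 0, with a median of -0.15 and sums of 1047 to 2786, 2198 to 2804 and 1662 to 2156 CPM. Of 8 adipocyte markers, 5 were tested in polyA and 3 of them were called higher in number 1, beside 4.74% of all features. In rRNA-depleted libraries 1 of 4 was called higher, beside 0.451% of gene rows. *Pparg*, the adipogenic nuclear receptor, was called in both (0.33 ± 0.08 SE, adjusted p = 0.0445, and 0.89 ± 0.14, adjusted p = 0.0442). *Plin1*, *Cidec* and *Lep*, which mark mature adipocytes, had at most 4 counts in any library. The part of proliferation or adipocyte markers in the members' pattern was not tested.

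Genes of these marker lists were called by line. Of the adipocyte markers tested in polyA libraries, 4 of 5 were called higher in sg5 and 3 of 5 in sg6, where 27.0% and 30.7% of all features were called in either direction, and their summed level was 33.2 to 44.4 CPM for WT libraries, 100.7 to 150.1 for those of sg5 and 122 to 149 for those of sg6. *Pparg* was higher than WT by 1.58 ± 0.17 SE in sg5 and 1.27 ± 0.17 in sg6 in polyA libraries (adjusted p = 0.000237 and 0.000682), and by 2.26 ± 0.31 and 1.51 ± 0.30 in rRNA-depleted libraries (adjusted p = 0.000691 and 0.0133). *Cebpa*, another adipogenic factor, and *Lpl*, the lipase that frees fatty acids from lipoproteins, were likewise higher in both clones in both kinds, *Cebpa* by 1.22 to 1.51 and *Lpl* by 1.84 to 4.57. Of 10 mesenchymal progenitor markers tested in polyA libraries, 3 were called higher and 3 lower in sg5, and 5 higher and 2 lower in sg6, and of 9 in rRNA-depleted libraries 2 were called higher in sg5 and 3 in sg6. Among them *Eng* and *Itgb1* were higher in all 4 contrasts, by 1.32 to 2.17 and 0.68 to 0.72, and *Cdh1*, an epithelial cadherin, was lower, with log2 fold changes from -1.64 to -3.82. Adjusted p values of these 5 genes ran from 4.79e-06 to 0.045. In rRNA-depleted libraries *Cdh1* was near the floor in the clones, at 0 to 0.348 CPM in sg5 and 0.215 to 0.298 in sg6. It stood there at 1.58 to 3.06 CPM in WT, and only through WT did it pass the low-count filter. The size of its fold changes in those libraries is therefore uncertain.

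The genes whose polyA levels tracked the 8 genes most closely were found by Pearson's r of log2 CPM with the mean centred level of the 8 over 9 polyA libraries, among 8337 candidates with a mean log2 CPM of at least 4. Among the 5 closest were *Nsdhl*, the sterol dehydrogenase (r = 0.98), *Letm1*, a mitochondrial inner membrane protein (0.97), *Aacs*, which makes acetoacetyl-CoA for lipid synthesis (0.97), and *Fbxo22*, an F-box protein (0.96). Over the 9 rRNA-depleted libraries, which did not enter that choice, r was 0.97 for *Nsdhl*, -0.10 for *Letm1*, 0.80 for *Aacs* and 0.77 for *Fbxo22*. The points of each r share their libraries and scaling factors.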

How the data were processed

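For polyA libraries the authors quantified mm10 known genes with Salmon and deposited expected counts per gene, which were rounded here. The rRNA-depleted table, as deposited, holds counts made with TElocal after STAR alignment, for genes and for single transposable element copies. Strand settings are not given in the sources used here. Entrez identifiers were named from RefSeq (24045 of 24100 matched). Groups came from the labels. Counts were filtered with filterByExpr (minimum count 10, minimum total 15), TMM-scaled and tested with edgeR 4.0.16 (quasi-likelihood) in R 4.3.3, with 1 fit per table and Benjamini-Hochberg adjustment over all features tested. A call is an adjusted p under 0.05. Contrasts between library numbers came from a fit of line plus number. In polyA libraries same-numbered sg5 and sg6 libraries correlated at 0.277 to 0.373 in their deviations, so the blocked value is given there. The members and gene lists were chosen with earlier results of these data known. Named genes were the 8 members, *Atrx*, genes of the lists and the 5 genes most like the members, of which some are not reported here. Alternatives were DESeq2 1.42.0, no filter, other scaling, genes alone, a fold threshold, the block, leaving out each library and thinning polyA counts to equal depth, the last partly added after the data were seen. No replicate pair was a duplicate. Scripts were tested on simulated data.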

Additional observations from a re-analysis of the deposited data

Results flagged for a closer look

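*Cdh1*, an epithelial cadherin among the markers of other cell types, differed between the clones in its distance from WT in polyA libraries (sg5 versus sg6, log2 fold change 1.59 ± 0.37 SE, adjusted p = 0.0414, edgeR), at 0.827, 1.31 and 1.57 CPM in sg5, 0.266, 0.562 and 0.408 in sg6, and 2.51 to 4.82 in WT. *Lpl*, the lipoprotein lipase, differed in the opposite direction in rRNA-depleted libraries (-2.46 ± 0.42, adjusted p = 0.0173), at 3.50, 2.90 and 1.31 CPM in sg5, 23.1, 10.3 and 8.94 in sg6, and 0.418 to 0.876 in WT.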

How the results depend on the processing

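Of the counts of members called, 148 under another setting and 263 without 1 library were within 1.5 times the value reported, and 16 and 25 moved by more. Many of these set 0 against 0. Without 1 library, the counts called lower, between numbers 2 and 3 and in the joint fit stayed at 0. Only the counts called higher for 1 versus 2 and 1 versus 3 were above 0 as reported. The totals therefore do not show those calls to be stable. The numbers did not meet the criterion for pairing the clones with WT: same-numbered libraries correlated in their deviations at 0.026 to 0.264 (sg5 and WT) and 0.098 to 0.430 (sg6 and WT) in polyA, and at 0.055 to 0.099 and 0.086 to 0.163 in rRNA-depleted libraries, and the sg5 and sg6 values there were 0.096 to 0.268. Every polyA library (9 of 9) and 8 of 9 rRNA-depleted libraries correlated best with their own number. With the replicate block, the members called in polyA were *Cyp51* in sg5 versus WT, *Hmgcs1* in sg6 versus WT and *Insig1* in sg5 versus sg6. These were 1 of 8 each, where 37.3%, 40.1% and 9.05% of features were called. In rRNA-depleted libraries they were 3 in sg5 (*Hmgcs1*, *Idi1*, *Fdft1*) and 1 in sg6 (*Idi1*) versus WT. There 6.65% and 4.47% of all features were called, and 19.3% and 13.0% of gene rows. DESeq2 called 5 members between numbers 1 and 2 in each kind and 4 between numbers 1 and 3 in rRNA-depleted libraries. Requiring a log2 fold change beyond 1 left 0 and 0 members in polyA (1 versus 2, 1 versus 3; 0.110% and 0.814% of features) and 1 and 0 in rRNA-depleted libraries (0.396% and 0.0802%). With genes alone the rRNA-depleted counts were 1 in sg5 versus WT (*Idi1*), 5 for 1 versus 2 and 0 for 1 versus 3, and without the filter the last was 2. The shares of features called by DESeq2, with genes alone and without the filter are not given here. These counts therefore cannot be set against a background. Without 1 library the counts called higher ran from 0 to 3 and 0 to 1 in polyA sg5 and sg6 versus WT, 0 to 1 for 1 versus 2 and 0 to 8 for 1 versus 3, and in rRNA-depleted libraries 0 to 1, 0 to 1, 0 to 4 and 0 to 2. The cause was not tested.

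Some values turned sign. *Lss* in polyA sg5 versus WT was 0.059 with the block and 0.014 with no filter, and *Cyp51* in rRNA-depleted sg6 versus WT was -0.025 with genes alone. Without 1 library, log2 fold changes from WT in polyA sg5 ran from -0.19 to 0.39 for *Sqle*, -0.21 to 0.53 for *Fdps*, -0.28 to 0.48 for *Lss* and -0.10 to 0.58 for *Insig1*. In polyA sg6 they ran from -0.33 to 0.25 for *Sqle*, -0.47 to 0.27 for *Fdps*, -0.70 to 0.042 for *Lss*, -0.37 to 0.21 for *Cyp51* and -0.46 to 0.093 for *Insig1*. In rRNA-depleted sg5 they ran from -0.017 to 0.34 for *Sqle* and -0.30 to 0.60 for *Insig1*, and in sg6 from -0.0049 to 0.29 for *Sqle*, -0.034 to 0.31 for *Fdps*, -0.091 to 0.19 for *Cyp51* and -0.46 to 0.22 for *Insig1*. For sg5 versus sg6 there, *Insig1* ran from -0.19 to 0.72, and for 1 versus 2 *Lss* ran from -0.21 to 0.30.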
